A study of Mus musculus with 6 samples.

Results

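The 31 genes described here mark macrophages and monocytes in mouse tissue: growth factor and chemokine receptors, scavenger receptors, Fc receptors and their adaptors, the chains of complement C1q, and proteins of the phagocyte lysosome and surface. They are known marker genes, listed with earlier results of these arrays in view. All 31 were measured, among 18193 genes in all, each through its brightest probe set (mean log2 over the 6 arrays) among those that the platform annotation assigns to that gene alone. RNA came from aortic roots of klotho-deficient mice, labelled as homozygous mutants for Klotho, and of wild-type mice. Both groups were of the strain C57BL/6J albino and aged between 6.0 and 6.5 weeks. Each root included the leaflets and annulus of the valve and some ascending aorta, and 3 roots were pooled for each of the 3 arrays per genotype, so single mice were not measured and the n is 3 pools per genotype throughout. The labels name no cell type for the mutation, so the comparison is between animals of different genotype and not between macrophages with and without Klotho.

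Macrophages are phagocytes that live in nearly every tissue, including the valve and the vessel wall. Some descend from embryonic precursors and renew themselves in place, and others arise from blood monocytes that enter through chemokine receptors. They depend on signals through the CSF1 receptor, clear dying cells and debris through scavenger, Fc and complement receptors, and digest what they take up in lysosomes rich in cathepsins and lysozyme. In the valve and the arterial wall they are studied for their part in matrix turnover, lipid uptake and calcification.

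As a check of the labels, Kl itself gave intensities of 138.3, 217.4 and 189.1 in klotho-deficient roots, against 166.7, 184.7 and 202.1 in wild-type roots, close to the array background of 161.8, which is the highest signal of any Bacillus control probe set. The probe set therefore did not separate the genotypes, and it checks nothing where its target lies outside the altered sequence, which the sources used here do not settle. The tissue label held, with 10 of 10 smooth muscle, matrix and endothelial markers of the aortic root above background. So did the cell type, with Csf1r, Adgre1, Cd68 and the 3 C1q chains above background on all 6 arrays, though Itgam, another defining marker, was below it on all. Correlations of log2 intensity across genes were 0.947 to 0.963 among klotho-deficient arrays and 0.964 to 0.98 among wild-type arrays. Klotho-deficient replicates 2 and 3 were below background for all 3 Y-linked transcripts measured, which were above it on the other 4 arrays (Kdm5d at 2516.3, 16.1 and 5.8, against 2512.1 to 3267.9 in wild type). Wild-type replicate 3 had a Gapdh 3′ to 5′ signal ratio of 7.18 against 3.23 to 4.08 elsewhere. The labels used here do not give the sex of the mice, so in what follows a level that is high on klotho-deficient replicates 2 and 3 cannot be told apart from a difference in sex between pools. Wild-type replicate 3 and these 2 arrays stand apart, and the results that turn on them most are given with and without them.

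No macrophage or monocyte gene passed the test between genotypes. In limma over all 18193 genes, 0 of the 31 had an adjusted p under 0.05, and the background for that rule was 0% of all genes. Their adjusted p-values ran from 0.689 for Lgals3 to 0.998 for Tyrobp. At an unadjusted p under 0.05, 1 of the 31 (Lgals3) was higher, where 3.25% of all genes were, and 0 were lower, where 3.16% of all genes were. The klotho-deficient and wild-type arrays did not overlap for 2 of the 31 in the higher direction (Lgals3 and Msr1), where 6.63% of all genes did so, and for 0 in the lower direction, where 6.84% did. These shares are near the background and are no result about the genes.

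Of the 31 genes, 20 were higher and 11 lower in klotho-deficient roots, with a median log2 difference of 0.12, beside 50.4% higher and a median of 0.00 over all genes. With dim genes left out, 19 of 28 were higher and 9 lower. The median was -0.04 without wild-type replicate 2 and 0.28 without wild-type replicate 3, so its sign rests on single arrays. With a covariate for the arrays without Y-linked transcripts, which leaves klotho-deficient replicate 1 to be set against wild type, 9 of the 31 were higher and the median was -0.20. The difference was under 0.3 in size for 18 of the 31 genes, and the 95% interval lay within 1 log2 unit of no difference for 17. In RNA from whole tissue, more cells of a type and more RNA per cell cannot be told apart, and this holds for every level given here.

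**Figure D1:**
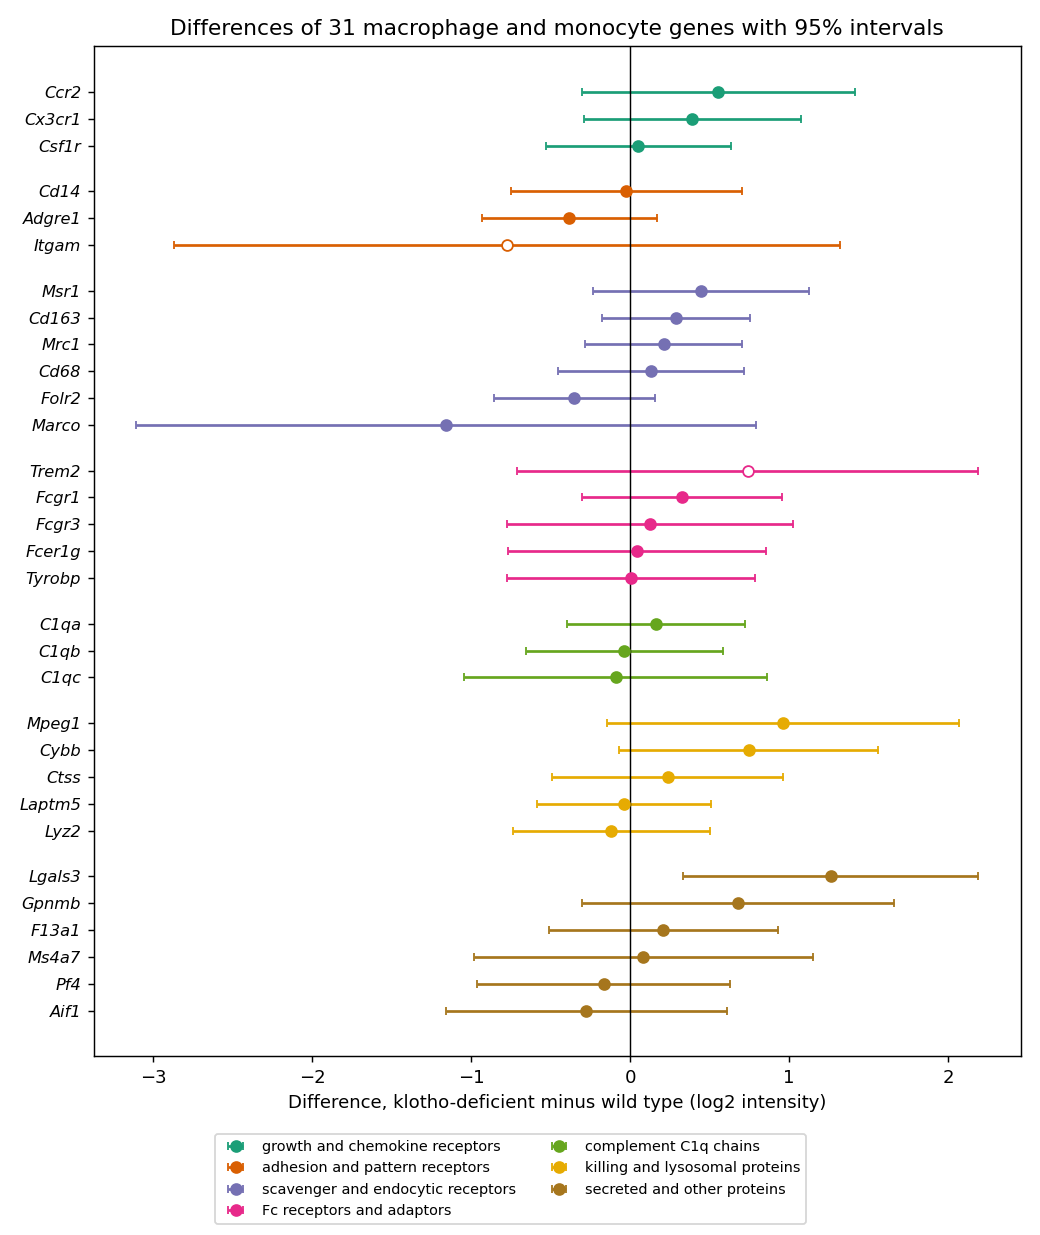
Log2 difference, klotho-deficient minus wild type, of the 31 macrophage and monocyte genes on the x axis, with limma's 95% intervals as bars and genes grouped by role from top to bottom (3 arrays per genotype). Open points are Itgam and Trem2, which were below background in both genotypes; the interval of Lgals3 alone among the 31 lies wholly on one side of 0.

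The receptors through which monocytes and macrophages are recruited and kept alive did not differ beyond the spread between pools. Csf1r encodes the receptor for the growth factors CSF1 and IL-34, on which most macrophages depend. It measured 11335.0, 12777.2 and 13531.1 in klotho-deficient roots, against 12332.2, 9256.6 and 15426.8 in wild-type roots. The groups overlapped fully, and the difference of 0.05 ± 0.24 (SE; adjusted p = 0.982) was much smaller than its error. Its other probe sets gave differences of 0.06 and 0.37, also with overlap.

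Ccr2, the receptor for CCL2 that releases monocytes from bone marrow, measured 530.5, 1212.4 and 632.4 in klotho-deficient roots, against 588.0, 523.0 and 416.1 in wild-type roots. Klotho-deficient replicate 2 was the high array, and replicate 1 lay among the wild-type values (difference 0.56 ± 0.35, adjusted p = 0.823). A second Ccr2 probe set gave 410.6, 694.0 and 367.5 in klotho-deficient roots, against 239.9, 275.5 and 188.3 in wild-type roots, with no overlap and a difference of 1.02, while the groups overlapped on the other 2 probe sets of the gene, at 0.47 and 0.05. On the probe set used, the difference was 0.20 without klotho-deficient replicate 2 and 0.07 with the covariate for arrays without Y-linked transcripts. Cx3cr1, the fractalkine receptor of patrolling monocytes and many resident macrophages, measured 371.4, 586.0 and 520.5 in klotho-deficient roots, against 461.6, 280.1 and 387.6 in wild-type roots. Its difference was 0.39 ± 0.28, or 0.01 with that covariate. The lowest adjusted p of the 3 receptors was 0.823.

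Of the adhesion and pattern receptors, Adgre1 was lower on average, Cd14 gave nearly the same level in both genotypes, and Itgam was below background. Adgre1 encodes F4/80, the surface protein by which mouse tissue macrophages are usually identified. It measured 681.4, 867.6 and 999.0 in klotho-deficient roots, against 1009.9, 997.3 and 1301.6 in wild-type roots. The groups met only where klotho-deficient replicate 3 sat just above wild-type replicate 2, and the difference was -0.38 ± 0.23 (adjusted p = 0.813), or -0.26 without wild-type replicate 3. The covariate for arrays without Y-linked transcripts made the Adgre1 difference larger, at -0.68. Cd14, the co-receptor for bacterial lipopolysaccharide, measured 370.0, 628.0 and 685.5 in klotho-deficient roots, against 510.5, 485.6 and 674.1 in wild-type roots, which is a log2 difference of -0.02 ± 0.30, with linear means of 561.2 in klotho-deficient roots, against 556.7 in wild type. Itgam, the CD11b integrin chain of myeloid cells, was below background in both genotypes, with the highest signal at 114.7 in klotho-deficient roots, against 135.2 in wild-type roots, so it gives no fold.

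**Figure D2:**
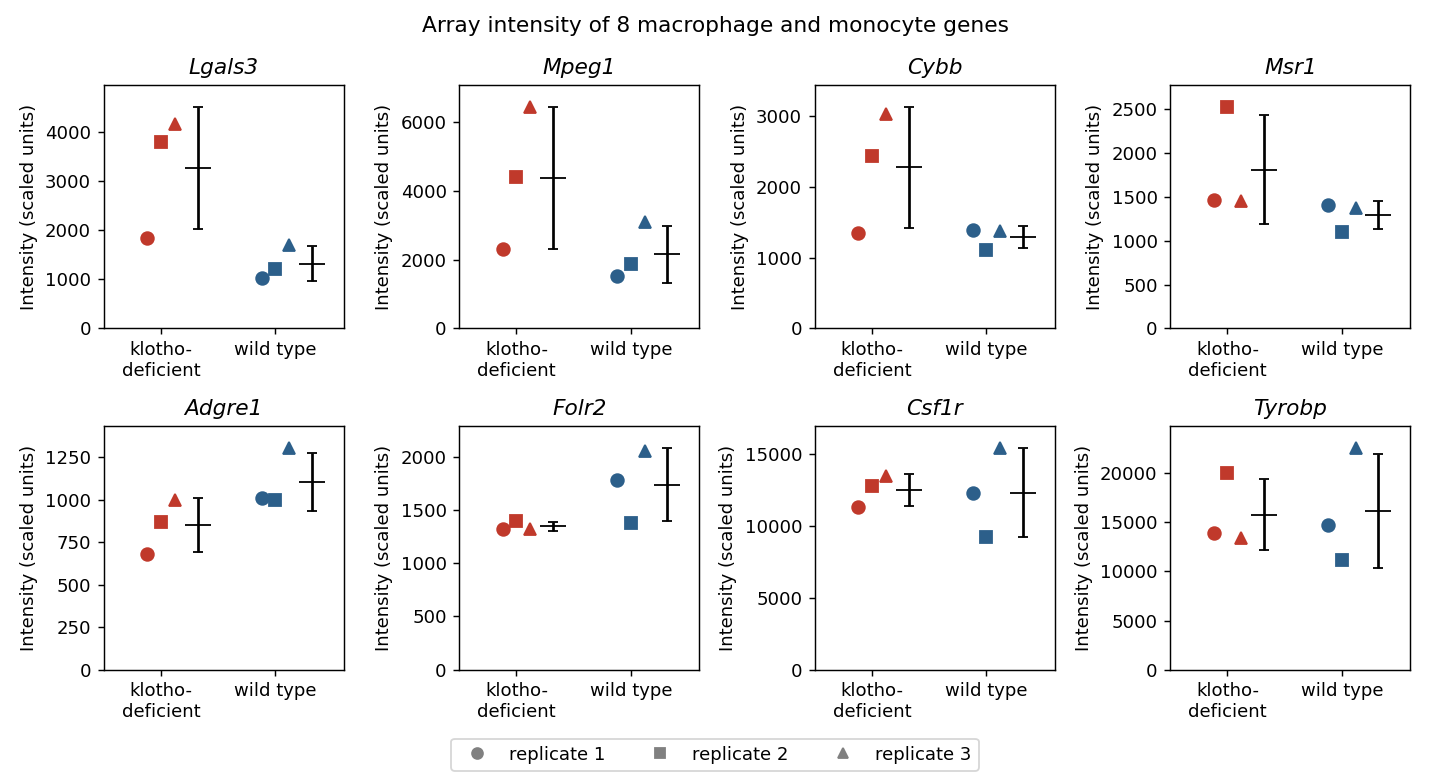
Array intensity in scaled units on a linear axis from 0 for 8 of the 31 genes, klotho-deficient arrays on the left of each panel and wild-type arrays on the right. Symbols mark the replicate and black bars the mean ± SD of 3 arrays; klotho-deficient replicates 2 and 3 lie above all wild-type arrays for Lgals3, Mpeg1, Cybb and Msr1, and the groups overlap for Csf1r and Tyrobp.

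Scavenger and endocytic receptors lay on both sides of no difference: 4 of the 6 were higher and 2 lower. Msr1 encodes scavenger receptor A, which binds modified lipoproteins. It measured 1463.6, 2527.6 and 1449.4 in klotho-deficient roots, against 1404.8, 1105.6 and 1370.0 in wild-type roots. The groups did not overlap, but klotho-deficient replicates 1 and 3 lay close above the wild-type arrays (difference 0.44 ± 0.28, adjusted p = 0.823), and on its 3 other probe sets the groups overlapped. The difference was 0.18 without klotho-deficient replicate 2.

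Cd163, the receptor that clears haemoglobin bound to haptoglobin, measured 9803.7, 8941.7 and 7352.0 in klotho-deficient roots, against 6774.8, 6729.9 and 7730.1 in wild-type roots. Its difference was 0.29 ± 0.19 (adjusted p = 0.827), or 0.47 with the covariate for arrays without Y-linked transcripts. Cd163 was the only one of the 31 that was highest on klotho-deficient replicate 1. Mrc1, the mannose receptor, measured 6474.6, 9229.6 and 6771.4 in klotho-deficient roots, against 6608.2, 6216.4 and 6346.9 in wild-type roots, where the SD over the 3 arrays was 199.5 around a mean of 6390. Klotho-deficient replicate 2 stood far above that range and the other arrays close to it (difference 0.21 ± 0.20). Cd68, a lysosomal glycoprotein used to stain macrophages, measured 674.2, 814.1 and 969.7 in klotho-deficient roots, against 607.2, 729.0 and 915.5 in wild-type roots, and its groups interleaved (0.13 ± 0.24).

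Folr2, a folate receptor found on tissue-resident macrophages, measured 1319.3, 1394.4 and 1319.2 in klotho-deficient roots, against 1780.4, 1373.8 and 2054.0 in wild-type roots. The klotho-deficient pools lay close together, with an SD of 43.4, while wild-type replicate 2 fell among them, and the difference was -0.35 ± 0.21 (adjusted p = 0.813), or -0.22 without wild-type replicate 3. Marco, a scavenger receptor for bacteria and particles, was dim, at 35.3, 81.8 and 223.6 in klotho-deficient roots against 95.6, 190.8 and 393.5 in wild-type roots. On 3 of the 6 arrays it was below background, and its difference of -1.16 ± 0.80 has the widest error of the 29 genes that were above background somewhere.

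Fc receptors and their adaptors carry antibody-bound targets into the phagocyte. The 4 that were above background differed by 0.00 to 0.33, and none of the adjusted p-values was below 0.847. Fcgr1, the high-affinity IgG receptor, measured 680.9, 997.0 and 1119.8 in klotho-deficient roots, against 880.3, 663.9 and 658.8 in wild-type roots. Klotho-deficient replicates 2 and 3 were above all wild-type arrays and replicate 1 was not (difference 0.33 ± 0.26, or -0.10 with the covariate for arrays without Y-linked transcripts). Fcgr3, a low-affinity IgG receptor, measured 2610.2, 4223.3 and 3163.8 in klotho-deficient roots, against 2865.8, 1989.3 and 4724.5 in wild-type roots (0.12 ± 0.37). Its signalling subunit Fcer1g measured 2114.8, 3751.2 and 3787.7 in klotho-deficient roots, against 2557.8, 2561.0 and 4184.7 in wild-type roots (0.04 ± 0.33). Both were highest on wild-type replicate 3.

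Tyrobp, the adaptor that passes on signals from Trem2 and related receptors, measured 13929.3, 19988.0 and 13441.5 in klotho-deficient roots, against 14729.3, 11175.5 and 22534.6 in wild-type roots. It had the smallest log2 difference of the 31 genes (0.00 ± 0.32, adjusted p = 0.998), its linear mean was 15790 in klotho-deficient roots against 16150 in wild-type roots, and its lowest and highest arrays were both wild type. Its direction is not settled. Trem2, a lipid-sensing receptor of phagocytes, was below background in both genotypes, with signals of 30.7 to 88.7 in klotho-deficient roots against 18.1 to 52.2 in wild-type roots, and is given no fold.

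The 3 chains of C1q, which begin the classical complement pathway and are made largely by tissue macrophages, stayed within their spread. C1qa measured 958.6, 1415.8 and 1504.0 in klotho-deficient roots, against 1226.0, 1099.4 and 1077.6 in wild-type roots, which is a difference of 0.16 ± 0.23. C1qb measured 16458.9, 23042.2 and 18876.0 in klotho-deficient roots, against 19825.2, 15372.8 and 25309.7 in wild-type roots, which is a difference of -0.04 ± 0.25. C1qc measured 2375.9, 3113.5 and 3931.5 in klotho-deficient roots, against 2814.7, 2254.4 and 5536.9 in wild-type roots (-0.09 ± 0.39). Wild-type replicate 3 was the highest array for C1qb and C1qc but not for C1qa. Although the chains assemble into one protein, their signs differed, and so did the signs of the 3 probe sets of C1qb, at -0.04, 0.11 and -0.13. Of the 12 genes with more than 1 probe set, C1qb, Laptm5 and Trem2 were the 3 in which a sign disagreed with that of the probe set used.

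Among the proteins that kill and digest, Mpeg1 and Cybb had the larger differences. Mpeg1 encodes perforin-2, a pore-forming protein of phagosomes. It measured 2304.7, 4394.8 and 6425.2 in klotho-deficient roots, against 1523.5, 1861.4 and 3092.6 in wild-type roots. Klotho-deficient replicates 2 and 3 exceeded every wild-type array and replicate 1 was within their range, with a difference of 0.96 ± 0.45, or 1.95-fold (adjusted p = 0.781). With the covariate for arrays without Y-linked transcripts the difference was 0.16.

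Cybb, the catalytic subunit of the phagocyte NADPH oxidase, measured 1351.0, 2443.7 and 3037.9 in klotho-deficient roots, against 1392.9, 1109.9 and 1378.2 in wild-type roots. The pattern was that of Mpeg1, with replicates 2 and 3 high and replicate 1 inside the wild-type range (difference 0.75 ± 0.33, 1.68-fold, adjusted p = 0.77), and with the same covariate the difference was 0.07. On a second Cybb probe set all klotho-deficient arrays, at 1242.0, 1877.5 and 2248.9, lay above the wild-type arrays, at 1146.8, 1050.7 and 1072.6. The third gave a difference of 0.38 with overlapping groups.

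The other 3 genes of this role showed little. Ctss, the lysosomal protease cathepsin S, measured 13933.0, 24448.5 and 22595.3 in klotho-deficient roots, against 15735.5, 13874.2 and 21608.1 in wild-type roots, which is a difference of 0.24 ± 0.30. Laptm5, a lysosomal membrane protein of blood cells, measured 18462.1, 25140.2 and 21800.0 in klotho-deficient roots, against 20415.6, 19551.6 and 27502.0 in wild-type roots (-0.04 ± 0.22). In both genes klotho-deficient replicate 1 was the lowest array of its genotype. Lyz2, the lysozyme of myeloid cells, measured 18495.7, 24402.8 and 16409.2 in klotho-deficient roots, against 20365.9, 17363.9 and 26851.2 in wild-type roots, and differed by -0.12 ± 0.25. Lyz2 has a near-identical neighbour in Lyz1, so its signal may hold RNA of both.

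The largest difference of the 31 belonged to Lgals3, which encodes galectin-3, a lectin that binds beta-galactosides and is abundant in activated macrophages. It measured 1845.7, 3782.1 and 4154.5 in klotho-deficient roots, against 1014.8, 1211.9 and 1704.4 in wild-type roots. All klotho-deficient arrays were higher, replicate 1 by a small margin over wild-type replicate 3, and the difference was 1.26 ± 0.38, or 2.40-fold, with a 95% interval of 0.34 to 2.19 (adjusted p = 0.689). The sign held in all 15 alternative settings, several of which leave a gene's difference unchanged by design. The difference ran from 0.53 with the covariate for arrays without Y-linked transcripts to 1.63 without klotho-deficient replicate 1.

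Galectin-3 is not made by macrophages alone, and cartilage cells are a known source. The 7 cartilage markers, a list that includes Sox9, Col2a1 and Acan, were 7 of 7 higher with a median difference of 0.71. Col2a1, the collagen of cartilage, measured 242.2, 2890.8 and 4225.9 in klotho-deficient roots, against 193.2, 417.6 and 296.0 in wild-type roots, and Cnmd, a cartilage matrix glycoprotein, differed by 1.32 ± 0.47. With the covariate for arrays without Y-linked transcripts, Col2a1 differed by -0.25, Cnmd by 0.38, and 2 of the 7 were higher with a median of -0.35. Their summed intensity was 6524 to 34108 in klotho-deficient roots, against 8676 to 10268 in wild-type roots, and the high arrays were again klotho-deficient replicates 2 and 3. None of the 7 was at 0 or below background in both genotypes. Neutrophil markers, whose cells share Cybb and Lyz2 with macrophages, were higher in 9 of 11, and 5 of the 11 were below background in both genotypes. Their sums were 1927 to 2879 in klotho-deficient roots, against 1194 to 1612 in wild-type roots. Of these sums, S100a9 alone made up 592.6, 886.8 and 1100.2 in klotho-deficient roots, against 26.3, 24.2 and 307.9 in wild-type roots. The part of either cell type in the levels of Lgals3, Mpeg1 and Cybb was not tested.

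The remaining secreted and surface proteins split both ways. Gpnmb, a transmembrane glycoprotein of lipid-laden phagocytes, measured 896.4, 777.3 and 2055.1 in klotho-deficient roots, against 653.4, 622.0 and 860.1 in wild-type roots. Its difference of 0.68 ± 0.40 (adjusted p = 0.813) rested largely on klotho-deficient replicate 3, without which it was 0.24. Aif1, the actin-binding protein also called IBA1, measured 3299.0, 6416.7 and 4916.0 in klotho-deficient roots, against 5539.6, 4056.7 and 8198.2 in wild-type roots, which is a difference of -0.27 ± 0.36. The groups overlapped.

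Pf4, a chemokine of platelets and of some resident macrophages, measured 7956.5, 12443.0 and 10913.1 in klotho-deficient roots, against 8698.7, 10143.9 and 17291.5 in wild-type roots, and differed by -0.17 ± 0.33. F13a1, the A subunit of coagulation factor XIII, measured 5363.1, 8168.4 and 5565.7 in klotho-deficient roots, against 4470.4, 4665.4 and 7578.5 in wild-type roots (0.21 ± 0.30). One array in each genotype was high for F13a1, replicate 2 of the klotho-deficient pools and replicate 3 of the wild-type pools. Ms4a7, a membrane-spanning protein of macrophages, measured 1387.7, 4167.8 and 2935.1 in klotho-deficient roots, against 2226.3, 2040.1 and 3143.6 in wild-type roots, and differed by 0.08 ± 0.44. The klotho-deficient pools of Ms4a7 thus differed among themselves by more than the genotypes did.

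Most of the genes shared one order of the arrays. Klotho-deficient replicate 1 was below replicates 2 and 3 for 25 of the 31 genes (80.7%), where 33.4% of all genes had that order. Wild-type replicate 3 was above replicates 1 and 2 for 24 of the 31 (77.4%), where 40.5% of all genes were, and both orders held for 19 (61.3%), against 15.0% of all genes. The mean log2 deviation of the 31 from each gene's own mean was -0.40, 0.32 and 0.28 in klotho-deficient replicates 1, 2 and 3, against -0.16, -0.32 and 0.27 in wild-type replicates 1, 2 and 3. The range within each genotype was several times the difference between the genotype means.

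Klotho-deficient replicates 2 and 3 were both above every wild-type array for 11 of the 31 genes (35.5%), where 11.9% of all genes were. Klotho-deficient replicate 1 was above every wild-type array for 4 of the 31 (12.9%), where 25.6% of all genes were. Signal for the genes was present on every array, and 28 of the 31 genes were above background on all 6 arrays. The summed intensity of 12 genes found in all leukocytes was 27696 to 48809 in klotho-deficient roots, against 31814 to 43658 in wild-type roots, and it too was lowest on klotho-deficient replicate 1 within its genotype and highest on wild-type replicate 3 within the other. Among them Ptprc, the CD45 phosphatase of all leukocytes, differed by 0.39 ± 0.28 (-0.07 with the covariate for arrays without Y-linked transcripts) and Lsp1, an actin-binding protein, by 0.31 ± 0.18, without overlap. Unlike the sum, within wild type Ptprc was lowest on replicate 3, at 2823.2, and Lsp1 was highest on replicate 2, at 2019.4. Whether the pools held different numbers of leukocytes was not tested.

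**Figure D3:**
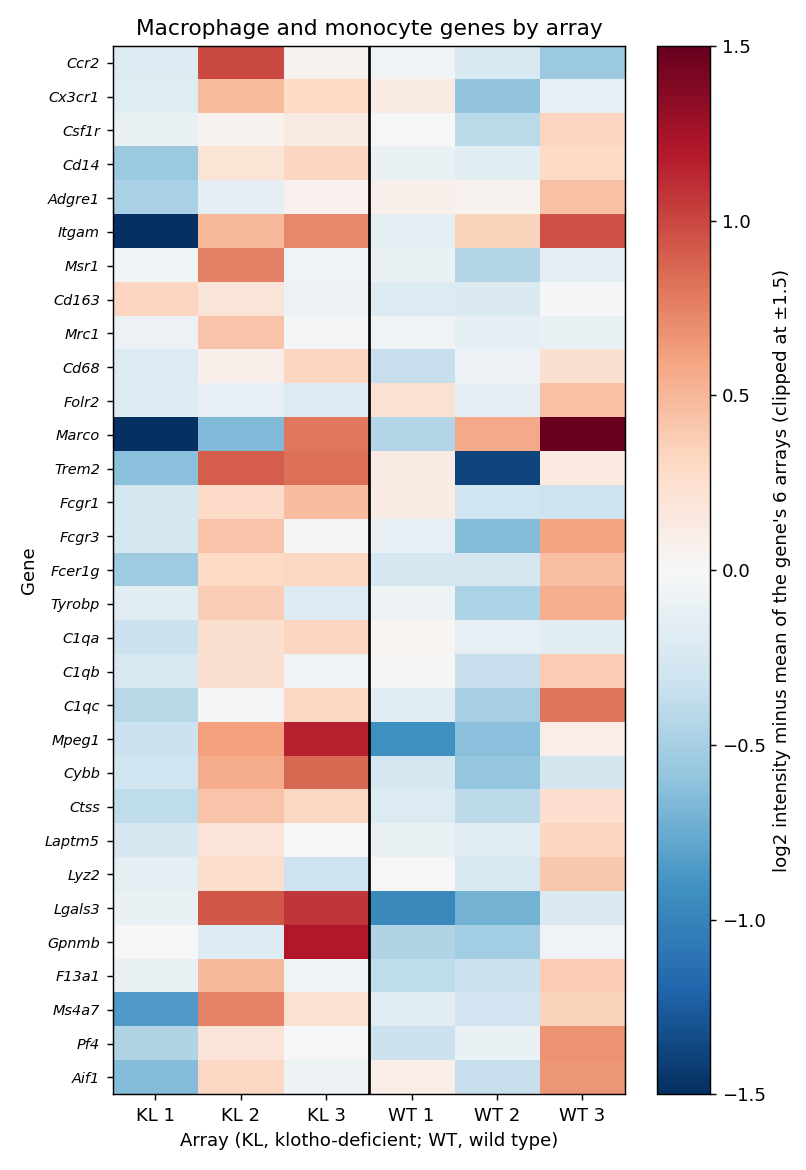
Heat map of the 31 genes (rows, grouped by role) on the 6 arrays (columns, klotho-deficient left of the line and wild type right of it); colour gives log2 intensity minus the gene's mean over the 6 arrays. Klotho-deficient replicate 1 and wild-type replicate 2 are mostly blue (low), and klotho-deficient replicate 2 and wild-type replicate 3 mostly red (high).

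The promoters of the genes were read for the purine-rich core bound by PU.1, the transcription factor that sets up macrophage gene expression. The window was the 250 bases before each RefSeq start on GRCm38.p6, and the motif GAGGAA was searched on both strands, where its opposite strand reads TTCCTC. Of the 31 genes, 25 matched the RefSeq promoter table. The core stood in 14 of the 25 (56%), against 25.9% of 27025 genes. The longer GAGGAAGT, which contains it, stood in 2 of the 25 (8%), against 2.79% of all genes. The C/EBP-type motif TTGCNNAA stood in 3 of the 25 (12%), against 10.8%. These are matches of letters and not shown to be binding sites. Below are 3 windows that hold the core, namely the 2 with the longer form (C1qc and Pf4) and the one with the most cores (Mrc1), with the core in capitals on the strand printed.
C1qc, chr4:136892915-136893164, minus strand: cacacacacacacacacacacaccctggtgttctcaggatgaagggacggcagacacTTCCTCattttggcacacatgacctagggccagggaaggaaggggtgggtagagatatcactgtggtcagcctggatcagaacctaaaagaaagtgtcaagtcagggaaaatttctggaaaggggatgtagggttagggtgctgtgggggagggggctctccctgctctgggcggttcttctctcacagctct
Pf4, chr5:90772185-90772434, plus strand: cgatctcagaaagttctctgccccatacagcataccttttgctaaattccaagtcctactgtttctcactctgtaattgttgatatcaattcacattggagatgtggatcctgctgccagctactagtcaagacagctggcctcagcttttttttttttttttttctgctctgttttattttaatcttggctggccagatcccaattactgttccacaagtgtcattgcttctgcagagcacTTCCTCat
Mrc1, chr2:14229164-14229413, plus strand: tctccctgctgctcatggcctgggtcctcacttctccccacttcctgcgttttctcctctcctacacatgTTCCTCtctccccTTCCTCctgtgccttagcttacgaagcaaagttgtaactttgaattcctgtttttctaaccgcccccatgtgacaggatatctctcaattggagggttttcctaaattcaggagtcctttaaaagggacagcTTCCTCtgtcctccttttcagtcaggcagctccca
The next 3 windows belong to the genes with the largest differences apart from the dim Marco and Itgam, and these letters are not in them, so they carry no capitals.
Lgals3, chr14:47373610-47373859, plus strand: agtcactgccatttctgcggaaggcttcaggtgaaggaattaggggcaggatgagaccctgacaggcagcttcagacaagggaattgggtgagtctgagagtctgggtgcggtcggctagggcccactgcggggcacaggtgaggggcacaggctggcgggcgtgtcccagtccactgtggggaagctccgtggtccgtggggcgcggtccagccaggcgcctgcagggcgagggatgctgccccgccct
Mpeg1, chr19:12460520-12460769, plus strand: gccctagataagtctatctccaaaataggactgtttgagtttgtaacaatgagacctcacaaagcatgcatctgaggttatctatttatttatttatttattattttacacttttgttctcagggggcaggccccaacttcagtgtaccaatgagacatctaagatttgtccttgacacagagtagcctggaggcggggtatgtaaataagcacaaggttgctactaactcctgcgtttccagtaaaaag
Cybb, chrX:9469325-9469574, minus strand: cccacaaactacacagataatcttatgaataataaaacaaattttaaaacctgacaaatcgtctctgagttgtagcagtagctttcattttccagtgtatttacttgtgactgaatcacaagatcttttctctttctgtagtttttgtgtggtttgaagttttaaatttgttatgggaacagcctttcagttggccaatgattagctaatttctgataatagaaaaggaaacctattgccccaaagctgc
C1qc and Pf4, with the longer motif, were both highest on wild-type replicate 3, while Mrc1, with 3 cores, was highest on klotho-deficient replicate 2. Lgals3, Mpeg1 and Cybb, without the core in this window, were all highest on klotho-deficient replicate 3. With 6 windows this is a description and no more.

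Lists of genes from the same pathways were read in the same fit. Of 8 growth factor and chemokine ligands, 3 were higher and 5 lower, with a median of -0.15 and 0 past the threshold. Csf1 and Ccl2 were among the lower, at -0.20 ± 0.24 and -0.27 ± 0.58. Cx3cl1, the ligand of Cx3cr1, measured 299.5, 257.3 and 725.2 in klotho-deficient roots, against 277.8, 178.0 and 186.0 in wild-type roots, with klotho-deficient replicate 3 the high array (0.87 ± 0.44, adjusted p = 0.796, and 0.41 without that array). Ccl8, a monocyte chemokine, stood at 4062.3 on klotho-deficient replicate 2 and at 579.1 to 1063.2 on all other arrays, and without that array it differed by -0.09. Of 12 transcription factors of myeloid cells, 8 were higher and 4 lower, with a median of 0.07. Among them Nr4a1, which patrolling monocytes need, measured 2179.4, 1771.7 and 4858.0 in klotho-deficient roots, against 1083.4, 563.3 and 1498.0 in wild-type roots. Its groups did not overlap, at 1.45 ± 0.52 (adjusted p = 0.753). Cebpa was lower on all klotho-deficient arrays than on all wild-type arrays (-0.38 ± 0.20). Spi1, which encodes PU.1, differed by -0.12 ± 0.28. Runx1, a regulator of blood cell development, stood at 3482.8 and 4297.1 on klotho-deficient replicates 2 and 3 and at 1255.6 to 1490.1 on the other 4 arrays (0.99 ± 0.46, or -0.05 with the covariate for arrays without Y-linked transcripts). The RNA was of whole roots, and which cells the Nr4a1 and Runx1 levels came from was not tested.

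Of 15 genes of tissue-resident macrophages, 4 were higher and 11 lower, with a median of -0.22. Without wild-type replicate 3, the array with the high Gapdh ratio, 7 were higher and 8 lower, with a median of -0.05. Mgl2, a galactose-type lectin of resident macrophages and some dendritic cells, measured 428.6, 547.8 and 550.8 in klotho-deficient roots, against 800.3, 1036.5 and 947.8 in wild-type roots. All klotho-deficient arrays were below all wild-type arrays, with a difference of -0.87 ± 0.20 that did not pass over all genes (adjusted p = 0.67). Timd4, a phosphatidylserine receptor of long-lived resident macrophages, measured 428.4, 506.2 and 329.9 in klotho-deficient roots, against 619.1, 503.0 and 884.0 in wild-type roots (-0.65 ± 0.29, or -0.43 without wild-type replicate 3). The 31 went both ways here, by the values above. Adgre1, Folr2 and Pf4 were lower on average, Cx3cr1, Cd163 and Mrc1 were higher, and the C1q chains split. Of 10 genes of inflammatory monocytes, 6 were higher and 4 lower, with a median of 0.22. Chil3, a chitinase-like protein of monocytes and alternatively activated macrophages, differed by 2.14 ± 0.67, at 226.2, 549.6 and 476.5 in klotho-deficient roots, against 45.7, 66.5 and 228.5 in wild-type roots, and klotho-deficient replicate 1 fell just below wild-type replicate 3. The signals of Chil3 on wild-type replicates 1 and 2 were below background, so its size is uncertain. Vcan, a matrix proteoglycan of monocytes that stromal cells also make, did not overlap between genotypes (0.48 ± 0.21).

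Of 20 genes of lipid handling and the phagolysosome, 8 were higher and 12 lower, with a median of -0.04. The cholesterol exporter Abca1 measured 4565.6, 4757.7 and 5067.5 in klotho-deficient roots, against 3140.8, 3584.0 and 2634.8 in wild-type roots. Its klotho-deficient pools lay close together and above every wild-type pool, at 0.63 ± 0.19 (adjusted p = 0.688). Klotho-deficient replicate 1 was the lowest of its genotype, as for most of the 31, but Abca1 was lowest of all on wild-type replicate 3. Its relative Abcg1 measured 761.8, 694.8 and 1146.8 in klotho-deficient roots, against 548.5, 509.9 and 644.0 in wild-type roots (0.58 ± 0.25). Both are expressed by many cell types of the root, so their levels are not those of macrophages alone. Of 17 partner subunits and signalling genes, 12 were higher and 5 lower, with a median of 0.12. Clec7a, the beta-glucan receptor also called dectin-1, did not overlap between genotypes (0.73 ± 0.31, or 0.20 with the covariate for arrays without Y-linked transcripts), and Fcgr2b, the inhibitory IgG receptor, differed by 0.43 ± 0.32, or 0.00 with it. None of these lists held a gene past the threshold.

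**Figure D4:**
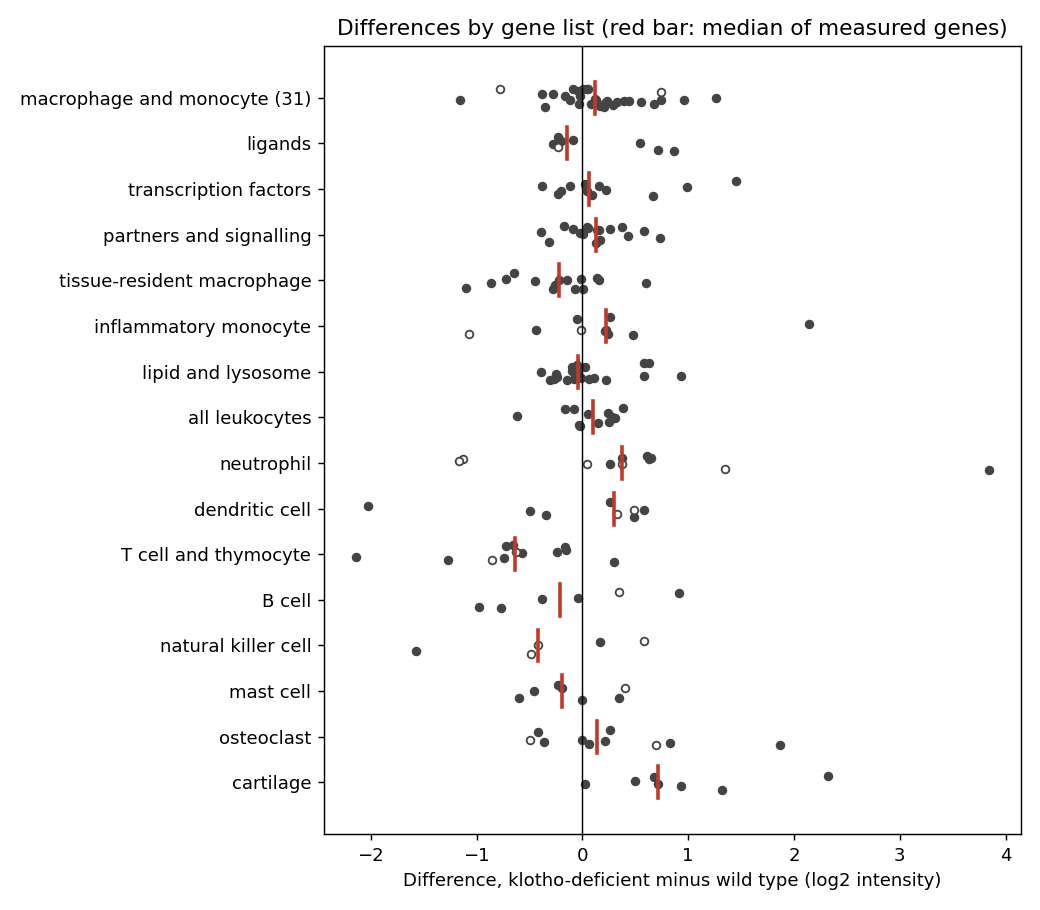
Log2 difference, klotho-deficient minus wild type, on the x axis for each measured gene (points) of the 31 macrophage and monocyte genes and of 15 other lists (rows); red bars mark each list's median and open points are genes below background in both genotypes. The 31 genes have a median of 0.12 (-0.20 with the covariate for arrays without Y-linked transcripts), tissue-resident macrophage genes -0.22 (-0.05 without wild-type replicate 3), and cartilage genes 0.71 (-0.35 with that covariate).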

How the data were processed

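Aortic root RNA of 6 pools, 3 klotho-deficient and 3 wild type, was hybridised to Affymetrix mouse arrays after amplification with a NuGEN Pico kit, per the labels' protocols. The authors deposited linear intensities for 45101 probe sets, between 0.1 and 131884.9. RMA is named in the submitters' processing notes; the arrays share a 2% trimmed mean of 1500.006 to 1500.007 but have medians of 425.6 to 556.6, and how this scale arose was not given in the sources. No detection calls were used, and precision is limited by the number of arrays.

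The log2 of each intensity was used as it stood, without pseudocount or renormalization. Annotation gave 1 gene to 34945 probe sets (932 with several were left out); 34741 had their identifier in RefSeq GRCm38.p6, with 0 symbols changed. The probe set of highest mean log2 stood for each of 18193 genes, of which 73.2% averaged above 161.8, the highest of 27 Bacillus control probe sets (median 26.35). A gene was below background in a genotype if none of its probe sets passed that signal there. Levels are not compared between genes.

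The test was limma 3.58.1 under R 4.3.3 (two-sided, Benjamini-Hochberg over all genes, threshold 0.05, 4 residual and 2.1 prior degrees of freedom); adjusted p-values come from it. Differences are klotho-deficient minus wild type in log2 units, ± SE; the p-values measure the spread between pools. The procedure was tested on simulated data. The 31 genes and all lists were chosen with earlier results of these data known. All 31 are named. Of other lists, the 2 genes of smallest p that were above background are named, with some further genes beside them. Some listed genes had no probe set of their own and were not analysed here. The alternatives were quantile normalization, a replicate block, dim genes left out, median centring, an offset of 100, the mean of a gene's probe sets, a trended robust prior, array weights, a covariate for the arrays that lacked Y-linked transcripts, and each array left out. Same-numbered pools had deviations correlated at 0.17, -0.01 and 0.16, so the numbers were not taken to pair the pools. Figures used matplotlib 3.10.9 in Python 3.11.15.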

Additional observations from a re-analysis of the deposited data

How the results depend on the processing

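No macrophage or monocyte gene passed the threshold in any of 15 settings. Apart from the covariate for arrays without Y-linked transcripts, the lowest adjusted p in limma was 0.353, for Lgals3 with a trended robust prior. Of the 31, 13 kept their sign wherever they were fitted: 9 higher (Lgals3, Mpeg1, Cybb, Gpnmb, Ccr2, Msr1, Cx3cr1, Cd163, Mrc1) and 4 lower (Adgre1, Folr2, Aif1, Marco). Some came close to no difference: Aif1 at -0.011 without wild-type replicate 3, and Mrc1 at 0.019 and Cx3cr1 at 0.011 with that covariate. Marco was not fitted with dim genes left out. Of 462 values over members and settings, 47 turned sign, and the cause was not tested. The replicate block, the trended robust prior and leaving out dim genes change no gene's difference, so none of their values could turn. Nor could the mean of probe sets for genes with 1 probe set. Over all genes the count called higher, 0 at first, was 1 with dim genes left out, with an offset of 100 or with array weights, and 2 with a trended robust prior (Dbp, with Sphk2 in the last); the count called lower was 0 to 1 when single arrays were left out (Eif2s3y without klotho-deficient replicate 1). The replicate block gave 0 calls. Its 20 members higher and median of 0.12 are those of the main fit by design, and so no further check. Not every array correlated best with its own number. With the covariate for arrays without Y-linked transcripts 9 members were higher with a median of -0.20, and leaving out single arrays gave 15 to 26 and medians of -0.04 to 0.29.

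Signs turned with array weights for C1qa (-0.014), Fcer1g (-0.012) and Ms4a7 (-0.11); with quantile normalization for C1qb (0.053) and Laptm5 (0.039); with the mean of probe sets for Laptm5 (0.12) and Trem2 (-0.014); and with median centring for Tyrobp (-0.0022). With the Y-linked covariate they turned for C1qa (-0.24), Ccl8 (-0.10), Cd68 (-0.13), Col2a1 (-0.25), Col3a1 (0.082), Csf1r (-0.091), Ctss (-0.27), Eif2s3y (0.18), F13a1 (-0.012), Fcer1g (-0.51), Fcgr1 (-0.10), Fcgr3 (-0.20), Ms4a7 (-0.81), Nppa (-0.45), Ptprc (-0.073), Runx1 (-0.054), Trem2 (-0.25) and Tyrobp (-0.15). Leaving out single arrays gave ranges across 0 for C1qb (-0.22 to 0.14), C1qc (-0.36 to 0.29), Ccl8 (-0.087 to 1.12), Cd14 (-0.19 to 0.25), Cd68 (-0.012 to 0.28), Col3a1 (-0.27 to 0.030), Csf1r (-0.14 to 0.23), Fcer1g (-0.10 to 0.32), Fcgr3 (-0.17 to 0.45), Itgam (-1.33 to 0.22), Laptm5 (-0.15 to 0.11), Lyz2 (-0.28 to 0.052), Ms4a7 (-0.27 to 0.53), Pf4 (-0.37 to 0.13), Prf1 (-0.034 to 0.33) and Tyrobp (-0.23 to 0.28). Signal near background limits Itgam, Trem2 and Marco.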

Other observations

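Markers of other blood cells that an aortic root can hold were read from the same fit, and none passed the threshold in limma. Neutrophil genes were led by S100a8, a calprotectin subunit, at 349.9, 377.9 and 361.8 in klotho-deficient roots against 231.1, 233.6 and 231.7 in wild-type roots (0.65 ± 0.16, adjusted p = 0.67). Its partner S100a9 was higher on all klotho-deficient arrays, at 592.6, 886.8 and 1100.2, but uneven in wild-type roots, at 26.3, 24.2 and 307.9. Of 12 T cell and thymocyte genes, 11 were lower, with a median of -0.64. Only 10 of the 12 were above background in either genotype, Rag1 among them on wild-type replicate 2 alone. The co-receptor component Cd3g was below background in klotho-deficient roots, though at 161.7 on replicate 3 only narrowly so. Averaged on the log scale, its wild-type level was 1.28-fold the background signal. That ratio leaves out the spread between pools, so it is no lower bound on the difference. Thy1, found on T cells and on many stromal cells, differed by -0.74 ± 0.27. Of 7 mast cell genes 5 were lower, among them the protease Mcpt4 at 474.2, 626.6 and 516.3 in klotho-deficient roots against 759.3, 750.8 and 694.6 in wild-type roots. Cpa3, another mast cell protease, differed by -0.60 ± 0.32 with overlap. Of 6 B cell genes 4 were lower. On the probe set used, Ms4a1, which encodes CD20, was above background only on wild-type replicate 3, at 237.5. Its difference was -0.97, or -0.41 with the mean of its probe sets. Cd79a, a chain of the B cell receptor complex, was near background in both genotypes. Natural killer cell genes were mostly dim, with 2 of 5 above background: the granule protease Gzma was above it only on wild-type replicate 3, and the pore-forming Prf1 differed by 0.16 ± 0.26. Of 8 heart muscle genes 3 were higher, with Myl7, an atrial myosin chain, at -0.56 ± 0.41 and Nppa, the atrial natriuretic peptide, at 1.15 ± 1.01. Of the 10 aortic root markers 6 were higher, with the collagen Col3a1 at -0.15 ± 0.22 and the endothelial cadherin Cdh5 at -0.59 ± 0.56.

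The osteoclast is a bone-resorbing cell of the same lineage as the macrophage. Of 10 osteoclast genes 6 were higher and 4 lower, with a median of 0.14. Acp5 and Nfatc1 were lower without overlap, at -0.36 ± 0.19 and -0.42 ± 0.23, and Ctsk differed by 0.07 ± 0.28. Dcstamp, which osteoclast precursors need to fuse, measured 388.1, 405.8 and 545.0 in klotho-deficient roots, while wild-type roots stayed under background (adjusted p = 0.564). Averaged on the log scale, its klotho-deficient level was 2.73-fold the background signal. This ratio too leaves out the spread between pools and is no lower bound on the difference. Atp6v0d2, a proton pump subunit, measured 444.4, 489.5 and 308.3 in klotho-deficient roots against 319.3, 293.2 and 127.5 in wild-type roots (0.83 ± 0.41, or 0.41 without wild-type replicate 3), and its groups overlapped. The dendritic cell regulator Zbtb46, which endothelial cells also express, was lower on all klotho-deficient arrays, at 2593.2, 2738.3 and 3077.1 against 4548.0, 3860.9 and 3457.8 in wild-type roots (-0.49 ± 0.19, adjusted p = 0.763), though the mean over its probe sets differed by -0.12. Cd209a, a lectin of monocyte-derived dendritic cells, was above background on wild-type replicate 3 alone.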
